A study of Caenorhabditis elegans with 2 samples.

Results

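The 10 genes described here encode the core of the replication fork of the nematode Caenorhabditis elegans: mcm-2 to mcm-7 for the 6 subunits of the MCM helicase, psf-1, psf-2 and psf-3, which encode subunits of the GINS complex, and pcn-1, which encodes the sliding clamp PCNA. They are 10 of 19973 nuclear protein-coding genes, and were chosen by name and role with their UNC-130 peak signals already known, so their signals and counts below are a description and carry no test. UNC-130 is a forkhead transcription factor, and its binding was measured by ChIP-seq in whole hermaphrodite L4 larvae taken 48 h after release from L1 arrest, in 2 biological replicates that form 1 group. The strain, AGK541, carries on chromosome II the insertion armSi1, in which the mex-5 promoter (Pmex5) drives UNC-130 joined to GFP ahead of the tbb-2 3'UTR, together with the marker cb-unc-119(+). All worms also carry unc-119(ed3) on chromosome III and niDf199 on chromosome IV. The mex-5 promoter is active in the germline, so the profile is that of a tagged transgene product and not of the gene's own pattern, and in whole worms it cannot be told in which cells a promoter was bound. The immunoprecipitation used an antibody to GFP, and the labels differ on whether the tag is GFP, eGFP or GFP with FLAG. There was no second condition, and the control reads behind the peak lists were not used here.

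Before replication starts, the MCM ring is loaded onto DNA at origins, and it becomes an active helicase when GINS and CDC-45 join it. PCNA is then loaded as a ring that holds DNA polymerases on the template. The germline is a major site of cell division in L4 larvae of C. elegans. In animals the genes of this machinery are classic targets of E2F factors, which act with retinoblastoma family proteins to tie their transcription to the cell cycle.

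The promoter window of a gene was set at 1000 bp before and 200 bp after its annotated 5' end, and a gene was scored by the peak summits in it. The authors' list of reproducible peaks, filtered by irreproducible discovery rate (IDR), numbered 1667 entries. The relaxed lists, labelled as peaks and background, numbered 19058 entries in replicate 1, 18463 in replicate 2 and 16959 after pooling. Signal is the peak signal value that the authors deposited, on an unstated scale, and a rank of 1 is the highest signal in a list. The lists hold no read counts, so depth is unknown and no error can be set on a single signal. Signals were higher in replicate 2 than in replicate 1 in general, by a median ratio of 1.51 over 1632 nuclear IDR peaks outside these genes, and at all 10 genes, so ranks are given beside them.

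Of the 10 genes, 8 carried an IDR summit in that window, while 7.85% of all coding genes did. Each of the 6 MCM genes had one, as did pcn-1, and of the 3 GINS genes psf-1 alone did. In the relaxed lists all 10 had a summit, while 30.4% of coding genes had one in the pooled list, 31.0% in replicate 1 and 31.7% in replicate 2. Since the genes were chosen with these lists known, nothing is read from the difference between the shares. Among coding genes ranked by their highest pooled signal, psf-1 stood at 82, pcn-1 at 173 and mcm-2 at 221, mcm-4 at 640 and mcm-6 at 720, and the others between 1212 and 2096.

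**Figure D1:**
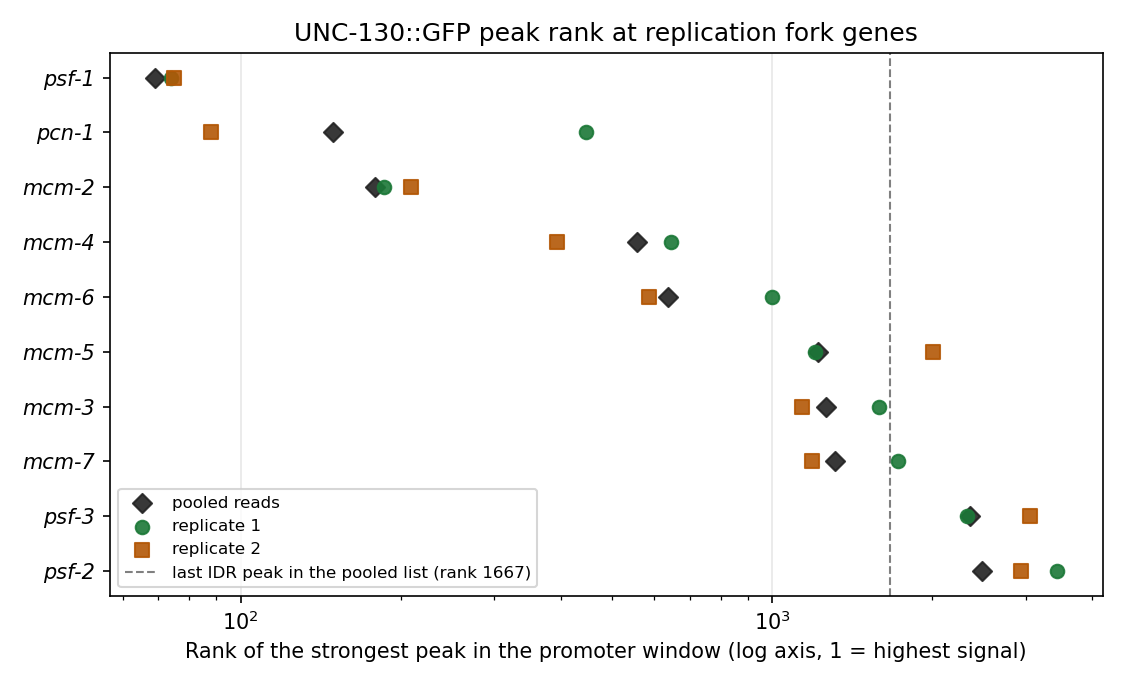
Rank of the strongest peak in the promoter window of each gene (x axis, log scale, 1 is the highest signal) in the pooled reads (diamonds), replicate 1 (circles) and replicate 2 (squares), with genes in order of pooled signal. The dashed line marks rank 1667, the last IDR peak in the pooled list; psf-1 lies between ranks 69 and 75 in every list, and psf-2 and psf-3 lie to the right of the line in every list.

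The MCM genes spanned much of the IDR range. The strongest was mcm-2 (II, 12006670 to 12007089), with a signal of 66.4 in replicate 1 and 93.8 in replicate 2 at ranks 186 and 209. In the pooled reads its signal was 163.1, rank 179. The replicate summits were 1 bp apart, 254 bp and 255 bp upstream of the gene, which is the closest match among the 10 genes.

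Next came mcm-4 (I, 2321797 to 2322216), with signals of 41.3 and 74.2 in replicates 1 and 2, ranks 646 and 394, and a pooled signal of 106.1. The mcm-6 peak (III, 9793817 to 9794236) had signals of 33.1 and 63.2, ranks 1000 and 585, and a pooled signal of 99.0. The products of mcm-4, mcm-6 and mcm-7 form the subcomplex that shows helicase activity on its own in other animals. Among these genes mcm-7 had the lowest signal in both replicates. Its peak (V, 4346774 to 4347193) reached 24.5 and 44.3 in replicates 1 and 2, ranks 1726 and 1185, with a pooled signal of 68.7.

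The mcm-3 peak (V, 15059505 to 15059924) had signals of 25.6 and 45.2 in replicates 1 and 2, at ranks 1586 and 1137, and 70 in the pooled reads. The mcm-5 peak (III, 4291283 to 4291702) had 30.1 and 32.2, at ranks 1202 and 2005, and 71.6 in the pooled reads. The products of mcm-2 and mcm-5 meet at the gate through which the MCM ring opens around DNA, and here mcm-2 led while mcm-5 was among the lowest. Taken by single replicates, mcm-5 fell outside the 1667 highest peaks in replicate 2, and mcm-7 in replicate 1. The place of mcm-5 against mcm-3 and mcm-7 changed between the replicates. The mcm-3 signal was just above that of mcm-7 in both, at 25.6 against 24.5 and 45.2 against 44.3. No error can be set on a single signal, so these 3 genes are not told apart in strength. By contrast, mcm-2 ranked above the other MCM genes in both replicates.

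Among the GINS genes, psf-1 carried the strongest peak of all 10 genes (II, 9968429 to 9968633), with signals of 88.2 and 130.0 in replicates 1 and 2, ranks 74 and 75, and a pooled signal of 219.2. Neither psf-2 nor psf-3 had an IDR summit in its window. At psf-2 (I, 15052501 to 15052920 in the pooled list) the strongest peak had signals of 17.3 and 25.2 in replicates 1 and 2, ranks 3436 and 2938, and 45 in the pooled reads, rank 2476. Its pooled summit lay 299 bp upstream of psf-2 and slightly nearer, at 291 bp upstream, to zipt-1 on the opposite strand. At psf-3 (I, 534106 to 534525 in the pooled list) the values were 21 and 24.8, ranks 2327 and 3055, and 46.7 in the pooled reads, rank 2349. The lowest IDR signal was 58.8, so mcm-7 at 68.7 was the closest of these genes above the limit and psf-3 at 46.7 the closest below it. The remaining GINS subunit gene, sld-5, had a best pooled signal of 16.4, a listed summit of 8.3 in replicate 1 and none in replicate 2. Its 3 partners thus had pooled signals from 45 to 219.2, and the products of the 4 genes assemble into 1 complex.

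The pcn-1 peak (IV, 4049586 to 4049792) had signals of 48.7 and 121.7 in replicates 1 and 2, ranks 447 and 88, and a pooled signal of 172.0, rank 149. This was the widest disagreement in rank among the 8 genes with an IDR peak, at 5.08-fold, while the other 7 lay between 1.01-fold and 1.71-fold. Among other nuclear IDR peaks the median was 1.58-fold, and 3.06% differed by more than pcn-1 did. The signal ratio of replicate 2 to replicate 1 was 2.50 at pcn-1, a value that 7.60% of other IDR peaks reached. Over the 8 genes the median ratio was 1.78, and 1.51 over the other peaks, whose quartiles were 1.22 and 1.88.

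The IDR summits lay in a narrow band upstream of the genes. The lowest distance was 116 bp at mcm-3 and the highest 340 bp at mcm-6, with 164 bp at psf-1, 182 bp at mcm-7, 190 bp at mcm-4, 227 bp at mcm-5, 249 bp at pcn-1 and 255 bp at mcm-2. The median was 208.5 bp, and it was 248.5 bp over the 1560 other coding genes with an IDR summit, whose quartiles were 141 and 421 bp. Of those other genes, 46.9% had their strongest summit between 116 and 340 bp upstream, so the position of these peaks is a common one. Many C. elegans messages are trans-spliced, which can leave an annotated 5' end downstream of the true start of transcription. The summits of both replicates were a median of 24.5 bp apart at the 8 genes, from 1 bp at mcm-2 to 70 bp at mcm-4, and 25.5 bp apart at the other IDR peaks.

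**Figure D2:**
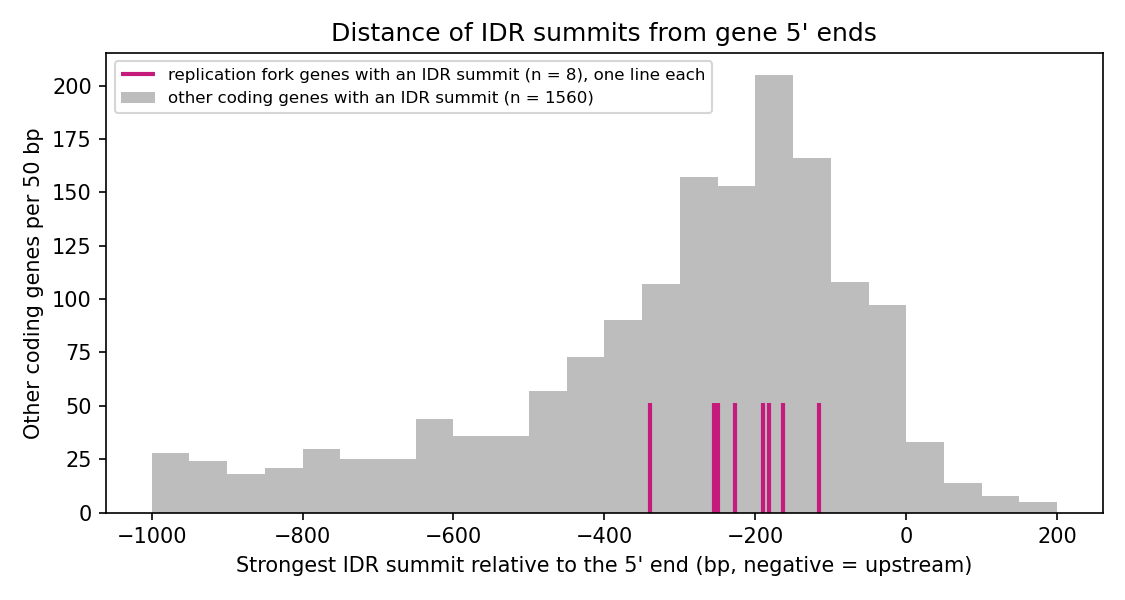
Position of the strongest IDR summit relative to the 5' end (x axis, bp, negative is upstream), with 1 line for each of the 8 replication fork genes and grey bars counting the other 1560 coding genes with an IDR summit per 50 bp (y axis). The lines fall between 340 and 116 bp upstream, in the tallest part of the grey distribution.

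Some windows held more than 1 summit. In the pooled list mcm-6 had a second peak of signal 51.7 whose summit lay 137 bp upstream, between the main summit and the gene. In replicate 2 this second peak reached 50, close to the 63.2 of the main one, while in replicate 1 it reached 14.7 against 33.1. At psf-2 the second summit lay 82 bp upstream with a pooled signal of 28.2, and at mcm-2 it lay 910 bp upstream with 23.8. Further weak summits appeared in replicate 2 alone at psf-1, pcn-1 and mcm-5, with signals of 17.4, 18.1 and 16.3. The peaks of psf-1 and pcn-1 were narrow, at 205 bp and 207 bp, while the other 6 IDR peaks of these genes were 420 bp wide. Peaks under 420 bp made up 13.2% of nuclear IDR peaks in all and 117 of the 131 with at least the pcn-1 signal, so width goes with signal across the list.

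**Figure D3:**
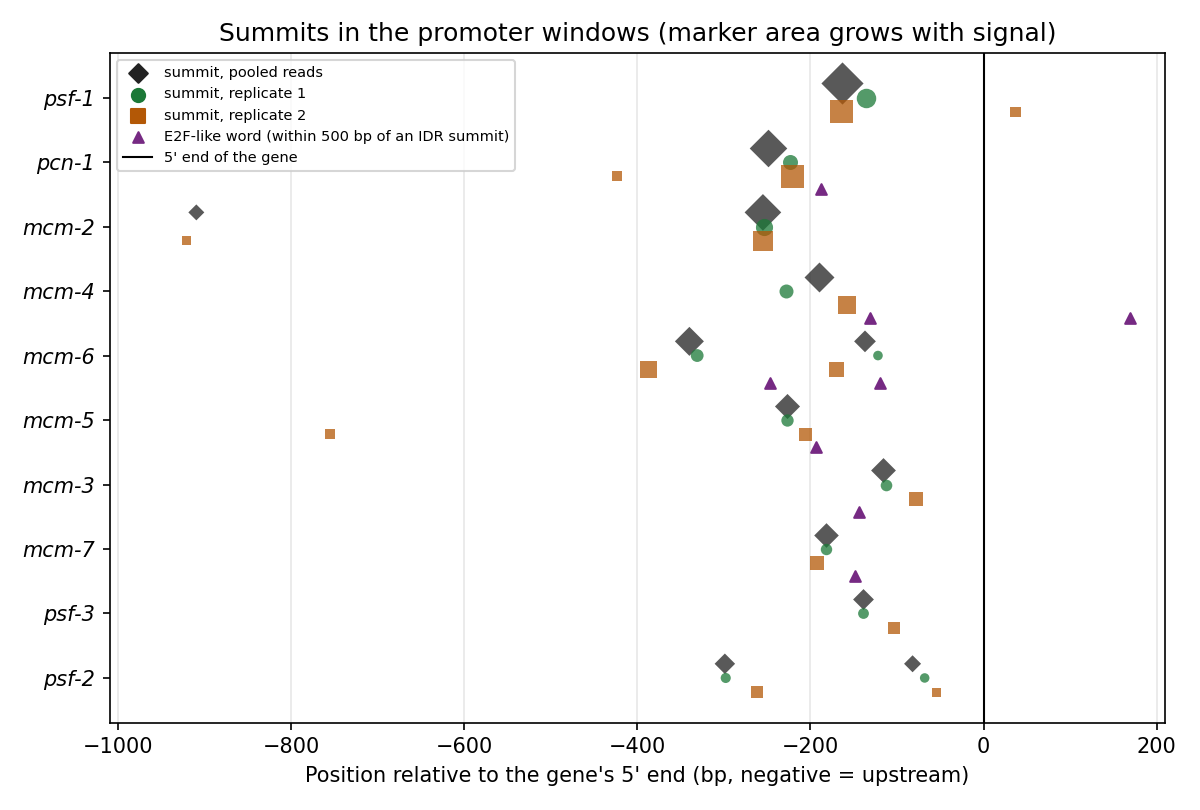
Summits in the promoter window of each gene by position relative to its 5' end (x axis, bp, negative is upstream) in the pooled reads, replicate 1 and replicate 2. Marker area grows with the deposited signal in the same way for every list, and signals differ in general level between lists. Triangles mark E2F-like words within 500 bp of an IDR summit. The main pooled summits of the genes with an IDR peak lie between 116 and 340 bp upstream. In replicate 2 the main summits of these genes reach from 78 bp at mcm-3 to 387 bp at mcm-6. Both mcm-6 and psf-2 show a second summit nearer the gene in every list, and most E2F-like words lie on the gene side of the main summit.

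A peak in an intergenic stretch can belong to more than 1 gene. At mcm-2, mcm-4, mcm-5 and pcn-1 no other coding gene had the summit in its window. The other 4 of the 8 shared it with a gene on the opposite strand, a share of 50%, and 61.5% of the other coding genes with an IDR summit shared theirs. This count goes by 5' ends and does not register the 3' end of a neighbour. On the same strand, Y39G10AR.32 ended 207 bp before mcm-4, whose summit was 190 bp upstream. Likewise nth-1 ended 276 bp before mcm-5, with its summit at 227 bp, and wrt-5 ended 557 bp before pcn-1. Whether these neighbours are transcribed together was not tested. The mcm-3 summit was 116 bp upstream of mcm-3 and 93 bp upstream of C25D7.15, with 208 bp between the genes, and was the only one of the 8 that lay nearer to the 5' end of another coding gene. The mcm-6 summit was 385 bp upstream of R10E11.9, an uncharacterized protein in RefSeq. The mcm-7 summit was 559 bp upstream of hpo-18, annotated in RefSeq as ATP synthase subunit epsilon, and 985 bp upstream of figl-1. The psf-1 summit was 460 bp upstream of R53.4, annotated in RefSeq as a putative ATP synthase subunit f, and it lay inside exons of the noncoding RNA genes R53.9 and R53.11, 33 and 55 bp from their 5' ends. None of the 8 had a tRNA gene within 500 bp of the summit.

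A further pair of IDR peaks near the 3' ends of these genes was picked out after the values were seen. At mcm-4 a summit of signal 95.0 lay 3 bp inside the 3' end (I, 2318084 to 2318503), where its exon overlaps that of the convergent gene ekl-7. At psf-3 a summit of signal 156.5 (I, 535209 to 535628) lay 75 bp past the 3' end and 372 bp upstream of icd-2, the next gene on the same strand. The closest IDR summit to the 5' end of psf-2 was 38966 bp away.

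The sequences below show what the summits of 5 of these genes sit on. They run 5' to 3' on the strand of the gene, cover up to 100 bp on each side of the IDR summit, and are shortened where an annotated exon begins. They come from the RefSeq genome on WBcel235, the assembly of ce11, at chrII:12006780-12006980 (minus strand) for mcm-2, chrIII:4291393-4291542 (minus) for mcm-5, chrIII:9793927-9794127 (plus) for mcm-6, chrV:4346884-4347084 (plus) for mcm-7 and chrIV:4049597-4049797 (minus) for pcn-1. Capitals mark every match on either strand to the E2F-like words TTTCCCGC, TTTCGCGC, TTTGCCGC and TTTGGCGC, to the forkhead words TGTTTAC and TGTTTAT, and to GCGCGC and GCGCGAA, which can overlap the E2F-like words.
mcm-2: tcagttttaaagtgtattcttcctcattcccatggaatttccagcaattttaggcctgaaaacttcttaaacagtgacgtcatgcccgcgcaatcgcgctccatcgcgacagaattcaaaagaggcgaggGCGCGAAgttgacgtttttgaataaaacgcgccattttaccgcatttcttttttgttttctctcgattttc
mcm-5: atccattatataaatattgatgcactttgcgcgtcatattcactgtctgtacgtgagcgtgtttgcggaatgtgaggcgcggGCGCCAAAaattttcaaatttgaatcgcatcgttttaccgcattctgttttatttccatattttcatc
mcm-6: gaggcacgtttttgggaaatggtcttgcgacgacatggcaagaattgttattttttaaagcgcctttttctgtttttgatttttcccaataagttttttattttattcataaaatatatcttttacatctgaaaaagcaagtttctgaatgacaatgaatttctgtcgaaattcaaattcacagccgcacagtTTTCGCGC
mcm-7: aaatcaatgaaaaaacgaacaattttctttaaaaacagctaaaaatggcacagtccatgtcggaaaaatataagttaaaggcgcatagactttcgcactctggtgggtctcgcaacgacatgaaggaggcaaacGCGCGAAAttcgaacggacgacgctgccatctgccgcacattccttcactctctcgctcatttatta
pcn-1: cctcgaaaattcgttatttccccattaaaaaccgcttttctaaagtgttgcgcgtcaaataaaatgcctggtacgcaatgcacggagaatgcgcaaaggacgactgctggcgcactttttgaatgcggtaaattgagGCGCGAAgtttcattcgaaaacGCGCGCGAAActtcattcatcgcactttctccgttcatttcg

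E2F-like words and GCGCGAA each occur in 4 of the 5 stretches, the E2F-like words in all but mcm-2 and GCGCGAA in all but mcm-5. Of the genes left out, mcm-4 had both 62 bp from its summit, and psf-1 had neither within 150 bp. In mcm-7 and pcn-1 the E2F-like word reads GCGCGAAA on the gene's strand, the reverse complement of TTTCGCGC, in mcm-6 TTTCGCGC itself, and in mcm-5 GCGCCAAA, the reverse complement of TTTGGCGC. Within 50 bp of the IDR summit, 3 of the 8 genes (mcm-3, mcm-5 and mcm-7) held such a word, and 8.41% of the other 1640 nuclear IDR summits did. Within 150 bp the counts were 6 of 8 genes and 14.3% of the others, with mcm-4, mcm-6 and pcn-1 joining. Windows of 50 bp on each side centred 500 bp from the summits held one at 0 of 16 points for these genes and at 1.43% of 3280 points for the others. With 150 bp on each side, 1 of the 16 points (6.25%) and 4.63% of the 3280 held one. The distance from summit to word was 24 bp at mcm-3, 36 bp at mcm-5, 38 bp at mcm-7, 62 bp at mcm-4, 64 bp at pcn-1 and 96 bp at mcm-6. In 5 of these 6 genes, mcm-3 being the exception, the word lay on the gene side of the summit. The 7 words upstream of these genes, 2 of them at mcm-6, lay between 120 and 247 bp before the 5' end.

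Scored without regard to peaks, from 250 bp before to 50 bp after the 5' end, an E2F-like word was present in 6 of the 10 genes (pcn-1 and every MCM gene other than mcm-2), in 11.5% of 1568 coding genes with an IDR summit and in 4.70% of all 19973 coding genes. It was absent from mcm-2 and psf-1, whose IDR signals of 163.1 and 219.2 were above those of the 5 MCM genes that held it, while pcn-1, which held it, lay between them at 172.0, and from psf-2 and psf-3, which had no IDR summit. These letters were not found in those windows, which says nothing of whether an E2F factor binds there. Among all coding genes, 19.3% of the 939 with the word and 7.29% of the 19034 without it had an IDR summit.

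**Figure D4:**
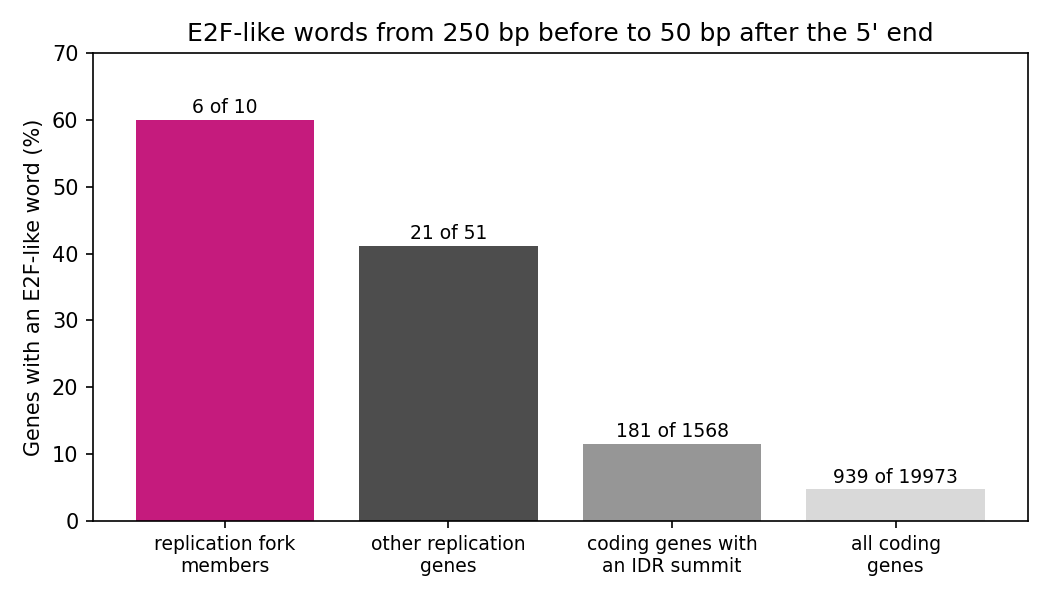
Share of genes (y axis, %) with any of the 4 E2F-like words, on either strand, from 250 bp before to 50 bp after the 5' end, for the replication fork genes, other replication genes, coding genes with an IDR summit and all coding genes, with counts above the bars. The bars stand at 6 of 10, 21 of 51, 181 of 1568 and 939 of 19973 genes.

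Forkhead words, of the kind that this class of factor binds, lay at 1 or 2 of the 8 summits, depending on the distance allowed. Within 50 bp of the summit mcm-3 alone had one (12.5%), and 4.57% of the other IDR summits had one. Within 150 bp mcm-3 and mcm-7 had one (25%), and 14.6% of the others did. Windows centred 500 bp from the summits, with 50 bp on each side, held a forkhead word at 0 of 16 points for these genes and at 2.9% for the others. With 150 bp on each side the shares were 2 of 16 (12.5%) and 8.54%. The word CTGTTTCA, known from upstream of the loci of 21U-RNAs, the piRNAs of C. elegans, was at 0 of the 8 summits within 150 bp, and GAGAGAGA was also at 0 of 8, while 1.10% and 4.09% of the other IDR summits held these words. GCGCGC was present within 50 bp at mcm-3 alone and within 150 bp also at mcm-4 and pcn-1, and 11.1% and 16.9% of other IDR summits had it at these distances. The word GCGCGAA, added after the sequences were seen, was within 50 bp of the summit at 4 of the 8 genes (mcm-2, mcm-3, mcm-7 and pcn-1) and at 6.65% of the others. It was picked from these same sequences, so nothing is read from the difference. At mcm-3, mcm-4, mcm-6, mcm-7 and pcn-1 a copy of it overlapped an E2F-like word, so the counts of these words are not separate. The G and C content within 50 bp of the summit was 22.8% at mcm-6 and between 41.6% and 52.5% at the other 7 genes, with a median of 49.5% over the 8 and 45.5% over the other IDR summits.

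Other genes of DNA replication, listed by role, were set beside these 10. Of 51 such genes, 23 (45.1%) had an IDR summit, with 7.85% of all coding genes as background, and 46 had a summit in the pooled list. The median of the highest pooled signal in the window was 85.3 over the 10 fork genes, 55.5 over the 51 other replication genes and 0 over all coding genes. The list of clamp loaders, single-strand binding proteins and lagging strand enzymes had 10 of 14 with an IDR summit and a median pooled signal of 80.5. Its strongest peaks were at top-2, a type II topoisomerase (signal 211.7), rnh-2, an RNase H (211.5), rfc-4, a subunit of the loader that places PCNA (155.7), and rpa-2, a subunit of the single-strand binding complex (121.9). The rfc-4 summit was shared with eef-1A.1, and that of top-2 with npp-3.

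Origin licensing genes had an IDR summit at 6 of 11, with a median pooled signal of 59.0. The highest were cul-4 (111.7) and ddb-1 (109.9), parts of the ubiquitin ligase that removes the licensing factor CDT-1, followed by orc-1, of the origin recognition complex (73.7), and gmn-1, geminin (61.3). The ddb-1 summit was shared with M18.6, and that of orc-1 with dhs-11. The remaining ones, orc-5 and cdt-2, were both at 59.0, just above the lowest IDR signal of 58.8, at IDR ranks 1660 and 1658. The orc-5 summit was shared with cyb-1. The genes for CDC-6 and CDT-1, which load MCM, were below the IDR limit at 56.5 and 49.1. Polymerase and primase genes had an IDR summit at 2 of 6, pola-1 (163.1) and pole-1 (138.2), the catalytic subunits of polymerases alpha and epsilon. The pola-1 summit was shared with Y47D3A.1. The names pold-1 and pold-2 were not found in the annotation, so those genes were not scored.

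Helicase activation genes had an IDR summit at 2 of 9. These were ctf-4 (144.5), whose product links the helicase to polymerase alpha and whose summit was shared with the elongation factor gene eef-1G, and mcm-10 (129.4), which is related to the MCM genes in function and not in sequence. Fork protection genes had one at 2 of 6, tim-1 (160.5) and clsp-1 (104.5). The tim-1 summit was shared with Y75B8A.23, and that of clsp-1 with eef-2. Nucleotide supply genes had an IDR summit at 1 of 5, dut-1 (68.7), shared with K07A1.13. The gene rnr-1, for the large ribonucleotide reductase subunit, stood at 57.5. An E2F-like word was present in 21 of the 51 promoters, and an IDR summit in 10 of those 21 (47.6%) and in 13 of the 30 without it (43.3%). When a summit was counted for the coding gene with the nearest 5' end alone, the number of other replication genes with one fell to 14, while 7 of the 10 fork genes kept theirs and mcm-3 lost its summit to C25D7.15. Under that assignment 1069 of the 19973 coding genes (5.35%) had a summit. Enrichment of open, actively transcribed promoters in general was not tested for any of these genes.

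**Figure D5:**
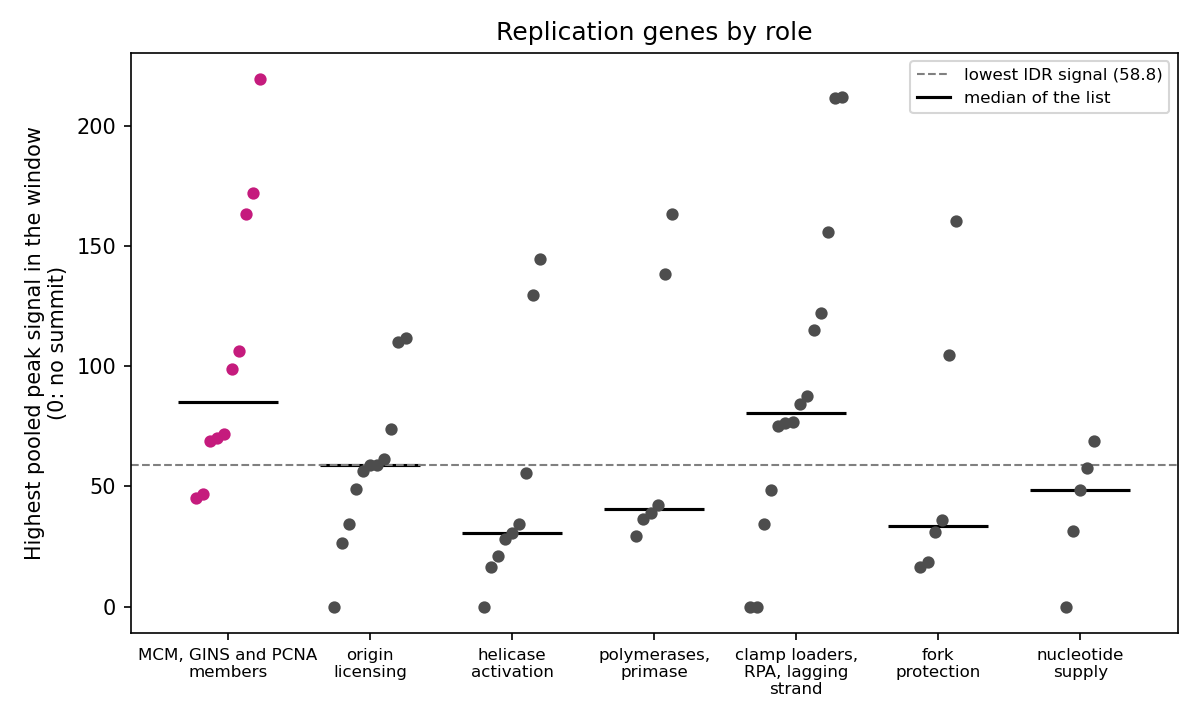
Highest pooled peak signal in the promoter window (y axis, authors' units, 0 where there is no summit) for the 10 MCM, GINS and PCNA genes and for 6 lists of other replication genes by role, 1 point a gene, with list medians as bars. The medians stand at 85.3 for the fork genes and 80.5 for clamp loaders, single-strand binding and lagging strand genes, and the other medians lie between 30.7 and 59.0, with the lowest IDR signal of 58.8 as a dashed line.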

How the data were processed

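ChIP-seq peak lists on ce11 were read for 2 biological replicates, for their pooled reads and for the optimal IDR list. Per the deposited text listings, the authors called each relaxed list against 1 shared control file and derived the IDR list from the relaxed lists. The signal in column 7, the −log10 q-value in column 9 and the summit offset in column 10 are as deposited by the authors. For the aligner, the peak caller and the threshold of IDR, the names and settings were not given in the sources used here. Lists on ce10 were not used.

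Peaks were joined to Ensembl release 115 genes on WBcel235 with Python 3.11.15, numpy 2.4.6 and pandas 2.3.3, and drawn with matplotlib 3.10.9. Distances run from the 5' end of the gene to the summit base. A rank is that of the signal within its list. All 10 members were named, with the coding and noncoding genes sharing a member's summit and up to 4 genes of each replication list by IDR signal, and any other gene was named after its values were seen. Of 56 listed names, 5 were not found in the annotation, which left 51 genes. The names not found were cdc-45, sld-3, dbf-4, pold-1 and pold-2. The sequence at the mcm-3 summit is not reported here. The members and lists were chosen with earlier results of these data known. With 1 group no comparison between conditions was possible and no test was run. The window count was tested on simulated data with planted summits. Alternatives covered the window, the 5' end, the assignment of shared summits, the stronger IDR peaks, tRNA-proximal summits and each replicate alone. Columns without a matching sample numbered 0.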

Additional observations from a re-analysis of the deposited data

How the results depend on the processing

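The number of the 10 fork genes with an IDR summit was 8 with windows from 500 bp upstream to 200 bp downstream, from 1000 bp upstream to 0 bp downstream and from 2000 bp upstream to 500 bp downstream, with the 5' ends of every transcript, and without summits within 500 bp of a tRNA gene. It was 7 with each summit counted for the nearest coding 5' end and 5 among the IDR peaks above the median signal, which held mcm-2, mcm-4, mcm-6, psf-1 and pcn-1. With the 1667 highest peaks of either replicate alone, it was 7 both times, without mcm-5 in replicate 2 and without mcm-7 in replicate 1. For the 51 other replication genes the count was 23, from 21 to 23 in single replicates, 14 with the nearest 5' end and 14 among the stronger IDR peaks, and between 21 and 27 under the other alternatives. For all coding genes it was 1568, from 1469 to 1574 in single replicates, 904 among the stronger IDR peaks and between 1069 and 1970 under the other alternatives. The stronger set holds fewer peaks by construction.

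Widening the sequence window to 150 bp on each side moved the number of the 8 summits with an E2F-like word to 6, against 3 at 50 bp, with a forkhead word to 2, against 1, with GCGCGC to 3, against 1, and with GCGCGAA to 6, against 4. With a window of 500 bp upstream, 3 of the 8 summits were shared with another coding gene, against 4. No paired analysis was possible because the 2 replicates form 1 group. Depth is unknown, and one control stands behind every list.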
